A study of Mus musculus with 6 samples.

Results

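Oxidative phosphorylation is described here through its nuclear genes, in germinal centre B cells that had been sorted into 2 subsets labelled DN and DP. Genes were taken by symbol: the subunits and named assembly factors of complexes I to V, cytochrome c, and several copper, haem and cytochrome b factors. Of the 55401 genes in the deposited tables, 127 matched by name, 14 of these carried pseudogene names and were dropped, and 113 identifiers with 112 distinct symbols remained. They comprised 78 subunits, 22 assembly factors, cytochrome c and 12 isoforms or gene copies. Some of the last are annotated as processed pseudogenes, although their names do not say so. In all, 100 of the 113 had enough reads to be tested.

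All 6 libraries came from wild-type C57BL/6 mice that received sheep red blood cells, a T-cell-dependent antigen, by intraperitoneal injection. The same antigen was given again on day 5, and spleens were taken on day 12. DN1 to DN3 and DP1 to DP3 shared genotype, strain, treatment and batch label, and differed only in the sorted subset. The labels do not say which surface markers DN and DP stand for. Each of 3 mice is described as giving both subsets, yet the labels leave the mouse behind each library unnamed, so p-values here measure the spread between libraries, which may be technical.

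Oxidative phosphorylation takes place in the inner mitochondrial membrane. Complexes I and II pass electrons from NADH and succinate to ubiquinone, complex III passes them to cytochrome c, and complex IV passes them to oxygen. The proton gradient built by complexes I, III and IV drives complex V, the ATP synthase. Most subunits are encoded in the nucleus and a few in mitochondrial DNA, and assembly factors insert cofactors and join the pieces without staying in the finished enzyme. Cox7a2l, a supercomplex factor outside this definition, was counted with the assembly factors here. Germinal centre B cells divide rapidly and are known to rely on mitochondrial respiration.

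Counts assigned to genes were 8904415 to 11897360 in DN libraries and 17509384 to 20538024 in DP libraries, and 3 counts corresponded to 0.236 to 0.315 CPM (counts scaled to the library's total) in DN and 0.155 to 0.183 in DP. Levels below are CPM after scaling by trimmed mean of M values (TMM). All 12 germinal centre B-cell markers were detected in every library, with Ms4a1 at 928 to 990 CPM in DN and 480 to 498 in DP, and 11 of the 12 were lower in DP. All 6 erythroid markers tested were lower in DP, with a summed level over 9 genes of 62.1 to 72.5 CPM in DN and 15.9 to 18.3 in DP. Of 9 macrophage markers tested, 8 were lower and Cd68 was higher, with summed levels of 33.5 to 37.3 and 15.9 to 19.5 CPM. T-cell markers summed to 50.5 to 58.9 and 58.2 to 60.7 CPM, nearly all of it Lck, while Cd3e stayed at or under 0.718 CPM in every library. Plasma cell markers summed to 612 to 634 CPM in DN and 464 to 477 in DP, and 4 of 7 tested were higher and 2 lower. The lower ones were the abundant Jchain (mean 277 to 155 CPM) and Slamf7 (216 to 95.8 CPM). The higher ones were Irf4 (12.1 to 70.5 CPM), Sdc1 (0.468 to 1.51 CPM), Prdm1 (1.26 to 3.50 CPM) and Xbp1 (113 to 140 CPM). The part of these marker differences in the results below was not tested. In bulk RNA, a change in the number of cells of a type and a change in RNA per cell cannot be told apart.

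Nuclear oxidative phosphorylation genes were mostly higher in DP, by modest amounts. With edgeR's quasi-likelihood test at a Benjamini-Hochberg adjusted p under 0.05, 63 of the 100 tested genes were called higher in DP and 11 lower, and 26 were not called. Among all 11296 genes tested, 75.9% were called, 38.3% higher and 37.6% lower. The share of oxidative phosphorylation genes called in either direction, 74.0%, was near that background, while the split between directions was 63.0% higher and 11.0% lower. All 3 DP libraries lay on one side of all 3 DN libraries for 77 of the 100 genes, against a background of 77.0%. Of these, 65 had DP above DN and 12 had DP below DN. The median log2 fold change (DP against DN) was 0.36 over the tested members, with quartiles of 0.06 and 0.72, and 0.01 over all genes tested. Of the 100 tested members, 13 were at least 2-fold higher and 32 at least 1.5-fold higher. Of all 11296 genes tested, 1386 and 2527 were. Scaling by library totals alone shifted the median of all genes to -0.19 and that of the members to 0.17. A change of scaling shifts all genes by nearly the same amount. The distance of 0.36 between the medians was therefore bound to stay, and is not a test of the scaling. With library totals alone 54 members were called higher and 26 lower, and of all 11296 genes 3288 were higher and 5359 lower.

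Summed over the 113 genes, the level was 8350, 8500 and 8620 CPM in the DN libraries and 10900, 11100 and 10900 CPM in the DP libraries, a ratio of 1.29. Their share of all gene counts, which TMM scaling does not enter, was 0.908% ± 0.0136 (SD, n = 3) in DN and 1.02% ± 0.0176 (SD, n = 3) in DP. Subunit genes summed to 1.27 times the DN level. Assembly factor genes rose from a summed level of 402 CPM ± 3.84 (SD, n = 3) to 565 CPM ± 13.8 (SD, n = 3), a ratio of 1.40. These sums are weighted by the most abundant genes, and Atp5b and Atp5a1 of the ATP synthase head alone held 1110 and 915 CPM on average in DN.

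**Figure D1:**
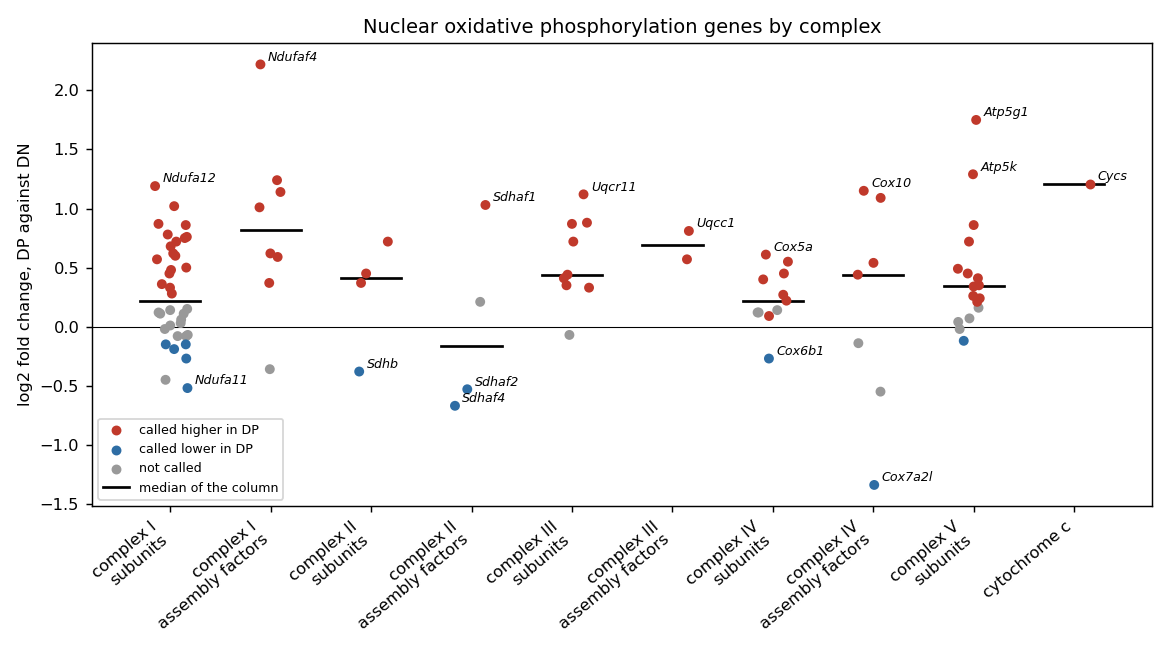
Log2 fold change (DP against DN) of each tested subunit, assembly factor and cytochrome c gene, in a column for its complex and class, with red for genes called higher in DP, blue for lower and grey for not called, and a black bar at the median of the column. Points for complex III lie above 0 apart from 1 grey point, and Ndufaf4 at 2.22 and Cox7a2l at -1.34 mark the ends of the range.

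Of 77 tested subunits, 48 were higher, 8 were lower and 21 were not called, with a median log2 fold change of 0.34. Of 21 tested assembly factors, 14 were higher, 3 were lower and 4 were not called, with a median of 0.57. Of the 21 assembly factors, 7 were at least 2-fold higher, against 5 of the 77 subunits and 1386 of all 11296 genes tested. The SD of the log2 fold changes was 0.82 among assembly factors, 0.42 among subunits and 1.07 among all genes tested. The difference between the classes was not tested. Assembly factor messages were also less abundant: per kilobase of exon, their median level was 5.79 CPM in DN and 9.42 in DP, and that of subunits was 19.8 in DN and 26.2 in DP.

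The largest rise of all members was that of Ndufaf4, an assembly factor that acts early, on the arm of complex I that binds ubiquinone. Its levels were 13.8, 9.24 and 9.03 CPM in DN and 52.2, 48.7 and 52.6 CPM in DP. The groups were far apart, although DN1 was higher than the other DN libraries. The fold was 4.67 and the log2 fold change 2.22 ± 0.09 (SE; adjusted p = 1.02e-26). Ndufaf2, a late factor related in sequence to the subunit Ndufa12, rose from 40.2, 32.5 and 37.1 CPM to 90.0, 87.3 and 83.5 CPM, a log2 fold change of 1.24 ± 0.06 (SE; adjusted p = 2.53e-27). Of its exon bases, 65.6% overlap a gene on the opposite strand, and the strand setting of the counting is not given in the sources used here. Ndufaf6 and Ndufaf7, a protein methyltransferase, also rose about as much, by log2 fold changes of 1.14 and 1.01.

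All but 1 of the 8 complex I assembly factors tested rose and none fell, with a median of 0.82. The smaller rises were those of Ndufaf1 (0.62), Ndufaf5, which hydroxylates the subunit Ndufs7 (0.59), and Ndufaf8, a partner of Ndufaf5 (0.37, and 0.17 with no call when library totals alone were used). Ndufaf3, known as the partner of Ndufaf4, did not pass the test, at 2.99, 4.51 and 4.11 CPM in DN and 2.61, 3.06 and 3.18 CPM in DP. Its log2 fold change was -0.36 ± 0.20 (SE; adjusted p = 0.0971), and it was called lower without DN1 (-0.54, adjusted p = 0.0227) and with library totals alone (-0.56). The summed level of the complex I factors was 109, 96.5 and 102 CPM in DN and 230, 229 and 228 CPM in DP, a ratio of 2.23.

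**Figure D2:**
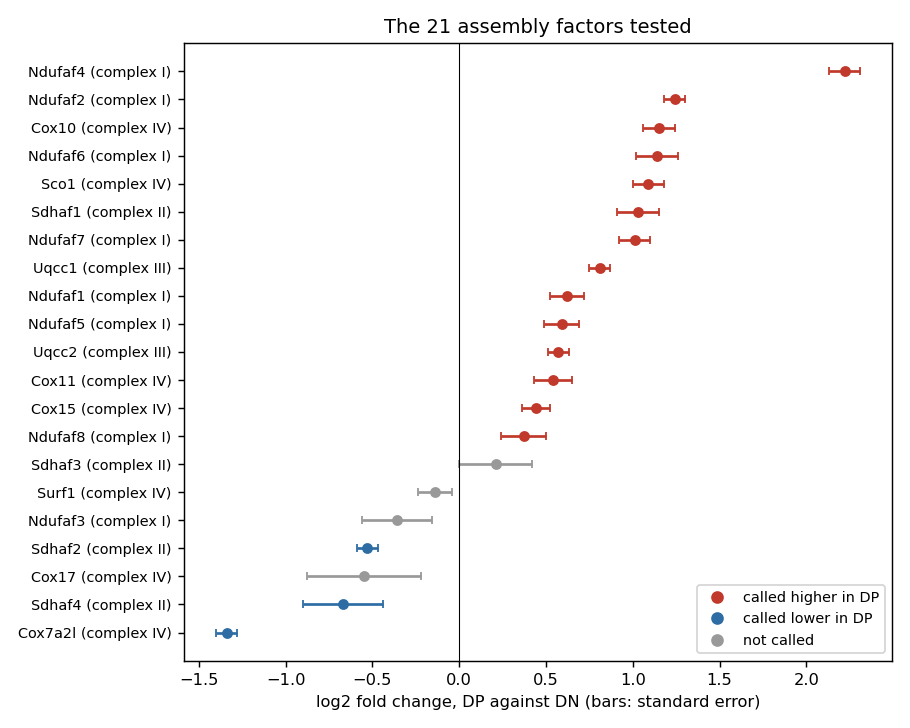
Log2 fold change (DP against DN, x axis) of the 21 tested assembly factors in order, with bars for the standard error of the fit and red, blue and grey for called higher, called lower and not called. In complex I, 6 of the 8 factors lie at 0.59 or above, and the 3 blue points are Cox7a2l at -1.34, Sdhaf4 at -0.67 and Sdhaf2 at -0.53.

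Subunits of complex I moved less than its assembly factors and in both directions. Of 36 subunits tested, 18 were higher and 5 lower, with a median log2 fold change of 0.21. The 7 nuclear core subunits, which carry the flavin and iron-sulfur clusters, included 5 that rose and none that fell: Ndufs3 (0.76), Ndufv1 (0.62), Ndufs7 (0.60), Ndufv2 (0.36) and Ndufs1 (0.33). Ndufs8 stood at 35.4, 44.1 and 48.1 CPM in DN and 41.4, 40.6 and 37.8 CPM in DP, and was not called. It was called lower without DN1 (-0.20, adjusted p = 0.00583) and with library totals alone (-0.27).

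Among the 29 supernumerary subunits, which surround the core, 13 rose and 5 fell, with a median of 0.14. Ndufa12 had the largest rise, from 46.5, 42.2 and 45.9 CPM to 107, 103 and 98.4 CPM, with no overlap between groups and a log2 fold change of 1.19 ± 0.05 (SE; adjusted p = 8.65e-29). Of its 50-base stretches, 17.7% also occur in 1 other gene. Ndufb6 followed at 1.02, though 39% of its exon bases overlap an opposite-strand gene. Ndufa5 (0.87), Ndufab1, the mitochondrial acyl carrier protein (0.78), and Ndufa8 (0.75) rose as well. The 5 that fell were Ndufa11 (-0.52), Ndufa1 (-0.27), Ndufa13 (-0.19), Ndufa2 (-0.15) and Ndufv3 (-0.15). Ndufa11, a membrane-arm subunit, had 15.2, 15.2 and 15.1 CPM in DN and 11.2, 10.7 and 9.78 CPM in DP (adjusted p = 1.11e-05). Of the other 4, Ndufa1 and Ndufa2 went to 0.02 and 0.05 without a call once a trend with transcript length was removed. Ndufa1 also lost its call without DN1, DN3, DP2 or DP3, Ndufa2 without DN2, DP1 or DP2, and Ndufv3 without any of DN3, DP1, DP2 and DP3.

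The remaining 11 supernumerary subunits were not called. Ndufs4, a subunit phosphorylated by protein kinase A, stayed at 166, 167 and 179 CPM in DN and 168, 170 and 167 CPM in DP, and was called lower with library totals alone (-0.21). Ndufb10, Ndufb7, Ndufb5, Ndufs5, Ndufa6, Ndufb3, Ndufc2, Ndufb11, Ndufa3 and Ndufb2 had log2 fold changes between -0.45 (Ndufb2, under 3.3 CPM in every library and called lower without DN2, at -0.64) and 0.15 (Ndufb3). Ndufb4c, a gene copy annotated as a processed pseudogene, was also tested and not called (0.01 ± 0.29, SE). Its 50-base stretches are all found elsewhere.

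Complex II, the succinate dehydrogenase that also works in the citric acid cycle, was split. The catalytic flavoprotein gene Sdha rose from 342, 341 and 343 CPM to 459, 470 and 469 CPM, a log2 fold change of 0.45 ± 0.04 (SE; adjusted p = 2.34e-17). The iron-sulfur subunit gene Sdhb, its direct partner, fell from 65.7, 81.4 and 84.0 CPM to 58.0, 61.3 and 56.5 CPM, by 0.38 ± 0.07 (SE; adjusted p = 5.41e-06). Both pairs of groups were apart, though DN1 was the DN library nearest to DP for Sdhb. The membrane anchor genes Sdhd (0.72) and Sdhc (0.37, and 0.17 with no call under library totals alone) rose.

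Assembly factors of complex II went both ways too. Sdhaf1, which helps to place iron-sulfur clusters in the Sdhb protein, rose from 7.07, 8.61 and 7.29 CPM to 15.3, 16.9 and 14.4 CPM (1.03 ± 0.12, SE; adjusted p = 7.18e-12), with 69.6% of its exon bases overlapping an opposite-strand gene. Sdhaf2, which attaches flavin to the Sdha protein, fell from 64.2, 63.9 and 64.2 CPM to 41.4, 47.5 and 44.2 CPM (-0.53 ± 0.06, SE; adjusted p = 1.92e-12). Sdhaf4, which binds flavin-carrying Sdha, fell from 2.83 to 3.08 CPM in DN to 1.47 to 2.31 CPM in DP (-0.67), and this call was lost without DP3. Sdhaf3 was not called (0.21 ± 0.21, SE). Sdhaf2 had the most counts of the 4, and the sum over them went from 77.9 to 65.3 CPM.

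In complex III, 10 of 11 tested members rose and none fell, with a median of 0.57, and 10 rose and 1 fell with library totals alone. Uqcr11, its smallest subunit, rose from 35.0, 31.0 and 34.2 CPM to 74.5, 76.2 and 67.5 CPM, a log2 fold change of 1.12 ± 0.06 (SE; adjusted p = 1.07e-24). Cytochrome c1, Cyc1, rose by 0.88 and Uqcrq by 0.87, and Uqcr10 by 0.72. The abundant Uqcrc1 (0.44), Uqcrb (0.41), Uqcrc2 (0.35) and the Rieske iron-sulfur protein gene Uqcrfs1 (0.33) rose less. Uqcrh, the hinge protein between cytochromes c1 and c, was the exception, at 150, 147 and 160 CPM in DN and 156, 140 and 138 CPM in DP, and was not called. It was called lower without DP1 (-0.12), with library totals alone (-0.27) and with upper-quartile factors (-0.11). The same held once a trend with transcript length was removed (-0.10). Both factors needed to make cytochrome b rose: Uqcc1 (0.81) from 34.4 to 36.2 CPM in DN to 60.3 to 64.3 CPM in DP, and Uqcc2 (0.57) from 40.4 to 47.2 CPM to 56.7 to 68.5 CPM.

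Cytochrome c, the soluble carrier between complexes III and IV and a trigger of apoptosis when released, rose more than 2-fold. Cycs stood at 87.6, 89.0 and 96.1 CPM in DN and at 210, 211 and 210 CPM in DP. The DP libraries were nearly equal to each other and far above DN, with a fold of 2.32 and a log2 fold change of 1.21 ± 0.04 (SE; adjusted p = 7.71e-34). Of the 50-base stretches in its exons, 26.1% occur in other genes (76 genes), and how the counting treated such reads is not given in the sources used here.

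**Figure D3:**
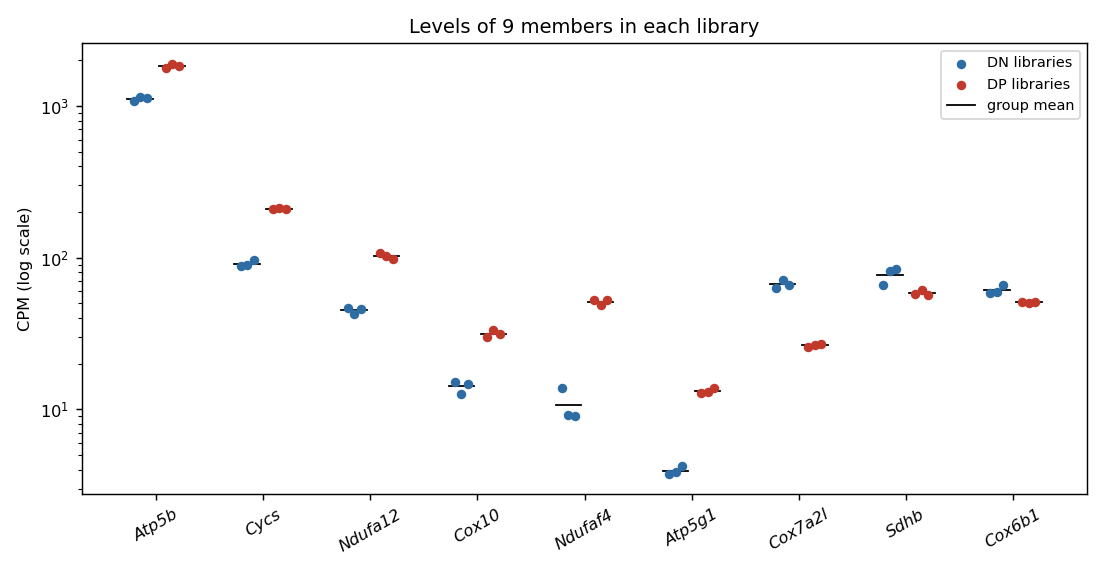
Level of 9 members in each library (CPM on a log axis), with blue points for the 3 DN libraries, red points for the 3 DP libraries and a bar at each group mean. In each of the 9 genes the groups do not overlap, with DP above DN for Atp5b, Cycs, Ndufa12, Cox10, Ndufaf4 and Atp5g1 and below DN for Cox7a2l, Sdhb and Cox6b1.

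Nuclear subunits of complex IV, cytochrome c oxidase, moved little: 7 of 11 rose and 1 fell, with a median of 0.22, and with library totals alone the complex IV genes as a whole had 8 higher and 5 lower of 18. Cox5a (0.61) and Cox5b (0.45), subunits bound at the core of the enzyme, rose most together with Cox7a2 (0.55) and Cox7b (0.40). Cox5b went from 205, 181 and 205 CPM to 277, 275 and 257 CPM. Cox6c (0.22), Cox8a (0.27) and Cox4i1 (0.09) also passed the test, but none of them was called higher with library totals alone, where Cox4i1 was called lower, at -0.11. Cox8a lost its call without DN2, DN3, DP1 or DP2, and Cox4i1 without DN1, DP2 or DP3. Cox6b1, a subunit that joins the enzyme's monomers, fell from 58.8, 59.6 and 65.8 CPM to 51.0, 50.5 and 51.0 CPM (-0.27 ± 0.06, SE; adjusted p = 1.96e-05). Ndufa4, counted here with complex IV, Cox6a1 and Cox7c were not called and lay between 0.12 and 0.14.

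Assembly factors of complex IV went both ways, with 4 of 7 tested higher and 1 lower. Cox10, which makes haem O, rose from 15.2, 12.7 and 14.8 CPM to 29.8, 33.5 and 31.5 CPM (1.15 ± 0.09, SE; adjusted p = 1.76e-18), and Cox15, which turns haem O into haem A, rose by 0.44. The copper chaperone Sco1 rose from 12.5, 13.4 and 15.4 CPM to 30.2, 30.1 and 27.1 CPM (1.09). Cox11, which delivers copper to another site, rose by 0.54, with 48.3% of its exon bases overlapping an opposite-strand gene. Surf1 (-0.14) and Cox17 (-0.55 ± 0.33, SE, at 0.771 to 1.41 CPM) were not called, and both were called lower with library totals alone (-0.33 and -0.74). Sco2 had no count in any library, and 68.3% of its exon bases overlap Tymp on the same strand.

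Cox7a2l had the largest fall of all members. Its product is a relative of the Cox7a subunits that joins complexes III and IV into a supercomplex, and C57BL/6 mice are known to carry a shortened form of it. Levels were 63.5, 71.1 and 66.3 CPM in DN and 25.7, 26.5 and 27.1 CPM in DP, so every DN library was far above every DP library. The log2 fold change was -1.34 ± 0.06 (SE; adjusted p = 3.72e-28), and 13.8% of its 50-base stretches also occur in 1 other gene. With this gene among them, the summed level of complex IV assembly factors hardly differed, at 143 CPM ± 5.33 (SD, n = 3) in DN and 145 CPM ± 4.62 (SD, n = 3) in DP. Of the counts for Cox7a2l, Cox7a2 and Cox7a1 together, Cox7a2l held 91.9%, 93.0% and 90.2% in DN and 75.4%, 73.7% and 75.3% in DP, and Cox7a2 held 8.05% on average in DN and 24.3% in DP.

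**Figure D4:**
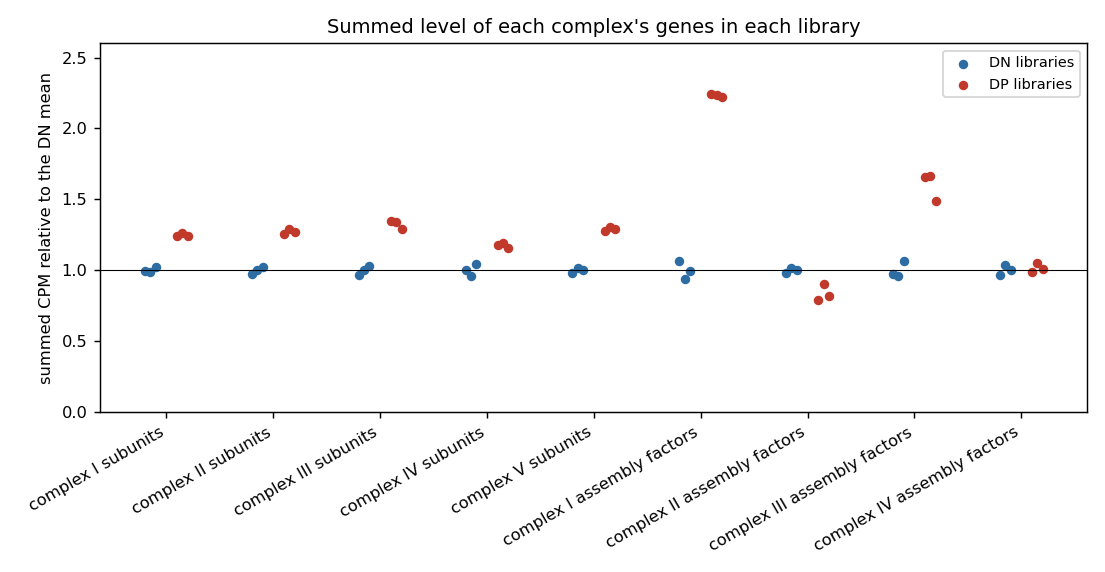
Summed CPM of the subunit or assembly factor genes of each complex in each library, divided by the mean of the 3 DN libraries, with blue points for DN and red for DP. Subunit sums of every complex lie above 1 in DP, complex I assembly factors are at 2.23 times the DN mean, and complex II factors lie below it.

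Complex V had 12 of 17 tested genes that rose and 1 that fell, with a median of 0.34, and 9 rose and 4 fell with library totals alone. In the catalytic head, the abundant beta subunit gene Atp5b rose from 1070, 1140 and 1120 CPM to 1770, 1890 and 1830 CPM (0.72 ± 0.03, SE; adjusted p = 4.20e-27), while the alpha subunit gene Atp5a1 rose from 856, 973 and 917 CPM to 1150, 1170 and 1180 CPM (0.35). Alpha and beta subunits are present in equal number in the enzyme; their messages changed by different amounts. Atp5d (0.45) and Atp5c1 (0.34) of the central shaft rose, and Atp5e (0.16) was not called. In the part of the enzyme within the membrane, Atp5k, subunit e, rose from 9.12, 7.77 and 7.29 CPM to 23.0, 20.1 and 16.6 CPM (1.29 ± 0.12, SE; adjusted p = 2.41e-14). Atp5mpl (0.26) and Atp5md (0.24) also passed the test, but not with library totals alone, nor, for Atp5md, without DN1, DP1 or DP3, and Atp5j2 (0.07) and Atp5l (-0.02) were not called.

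In the peripheral stalk, Atp5o rose by 0.86 at 2.16 to 5.75 CPM, with 47.9% of its exon bases overlapping other genes. Atp5pb rose by 0.21, and was at 0.01 with no call under library totals alone. Atp5h, subunit d, fell from 509, 482 and 493 CPM to 445, 460 and 464 CPM (-0.12 ± 0.04, SE; adjusted p = 0.00258), with no call when no filter on low counts was used (-0.04), and Atp5j was not called (0.04). Of the 50-base stretches of Atp5h, 19.9% occur in other genes (18 genes).

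The genes Atp5g1, Atp5g2 and Atp5g3 encode the same mature c subunit of the rotor ring and differ in the targeting peptide that is removed. All 3 rose, by unequal amounts. Atp5g1 rose from 3.77, 3.88 and 4.21 CPM to 12.9, 13.1 and 13.9 CPM, a fold of 3.36 and a log2 fold change of 1.75 ± 0.14 (SE; adjusted p = 8.95e-18), while Atp5g2 rose by 0.41 and Atp5g3 by 0.49. Of the counts of the 3 genes, Atp5g1 held 9.14% in DN1 (48 of 525 counts; exact 95% interval 6.82% to 11.9%), 8.87% in DN2 and 9.23% in DN3. In DP it held 19.3%, 19.2% and 20.2%, where the interval for DP1 was 17.1% to 21.8%. The mean share was 9.08% ± 0.188 (SD, n = 3) in DN and 19.6% ± 0.545 (SD, n = 3) in DP, and these intervals cover counting error only. Sequence shared with other genes amounts to 36.7% of the 50-base stretches of Atp5g2 and 11.1% of those of Atp5g1.

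**Figure D5:**
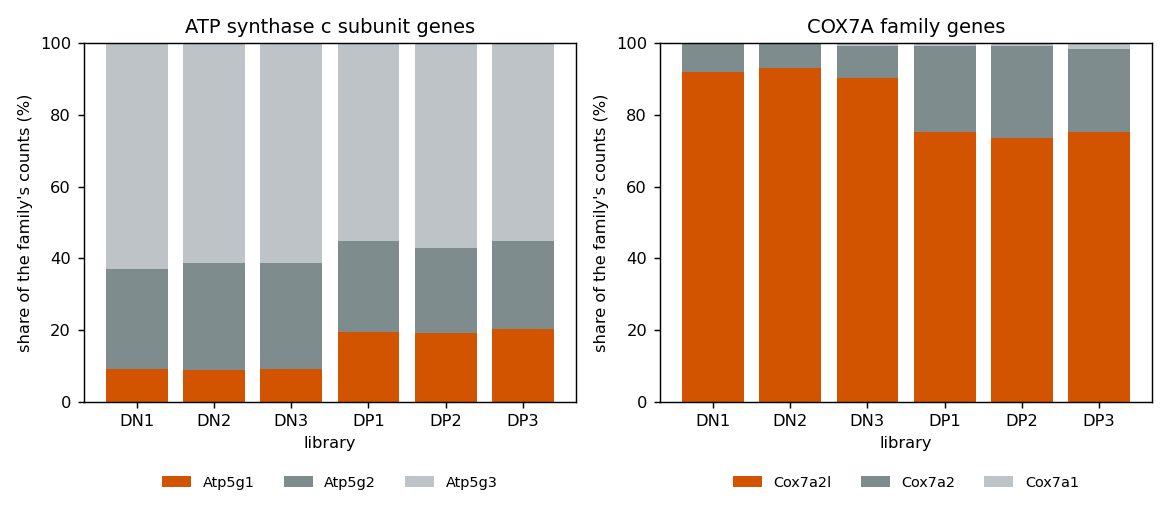
Share (%) of the counts of a gene family held by each gene in each library, for the 3 c subunit genes of ATP synthase (left) and for Cox7a2l, Cox7a2 and Cox7a1 (right). Atp5g1 goes from 8.87% to 9.23% in DN to 19.2% to 20.2% in DP, and Cox7a2l from 90.2% to 93.0% in DN to 73.7% to 75.4% in DP.

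The 12 isoforms or gene copies known from heart, muscle, lung or testis, or from gene duplication, had almost no reads, apart from Ndufb4c. Among them, Cox6c2, Ndufa11b, Ndufb4c and Ndufs6b are annotated as processed pseudogenes and were kept because their names are not pseudogene names. Cox4i2, Cox6a2, Cox6b2, Cox6c2, Cox7a1, Ndufa4l2 and Ndufs6b had at most 14 counts in any library. Cox7b2, Cox8b, Cox8c and Ndufa11b had none, so each was below the floor of 3 counts per library. The widely expressed forms Cox4i1 (234 to 274 CPM), Cox6a1 (12.2 to 16.3), Cox6b1 (50.5 to 65.8) and Cox8a (8.19 to 13.5) therefore supplied nearly all reads of their families in both subsets. A second identifier for Atp5o, which lies wholly within other genes, also had no counts.

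Promoter sequence was examined because the nuclear genes of respiration are known to carry sites for NRF1, for ETS-family factors such as GABP and for YY1, and because MYC and its relatives bind the E-box. RefSeq windows (build GRCm38.p6) of 300 bases, from 250 before to 50 after the annotated start, were found for 90 of the 113 genes, in 95 windows. Both strands were searched for GCGCATGC (NRF1 core), CCGGAAG (ETS), AAGATGGC (YY1) and CACGTG (E-box), of which the ETS and YY1 motifs can share the letters AAG and the NRF1 core can overlap its own reverse complement. The windows shown are those of the largest rise (Ndufaf4), cytochrome c (Cycs), the c subunit gene with the largest rise (Atp5g1), the complex III gene with the largest rise (Uqcr11) and the largest fall (Cox7a2l). Each is written 5′ to 3′ on the strand of the gene, and capitals mark every match to the motifs on either strand.

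Ndufaf4 promoter, chr4:24897833-24898132, plus strand: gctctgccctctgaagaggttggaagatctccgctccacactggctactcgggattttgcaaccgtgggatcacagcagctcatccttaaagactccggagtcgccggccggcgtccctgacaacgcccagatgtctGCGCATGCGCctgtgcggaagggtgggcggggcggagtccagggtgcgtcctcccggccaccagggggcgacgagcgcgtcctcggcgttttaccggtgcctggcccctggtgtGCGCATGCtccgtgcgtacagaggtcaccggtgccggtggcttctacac
Cycs promoter, chr6:50566520-50566819, minus strand: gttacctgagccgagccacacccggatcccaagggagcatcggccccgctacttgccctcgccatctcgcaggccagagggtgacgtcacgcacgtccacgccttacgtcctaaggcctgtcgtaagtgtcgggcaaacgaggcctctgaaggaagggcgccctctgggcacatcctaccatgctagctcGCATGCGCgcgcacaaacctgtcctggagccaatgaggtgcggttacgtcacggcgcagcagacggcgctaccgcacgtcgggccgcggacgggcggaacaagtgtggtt
Uqcr11 promoter, chr10:80406772-80407071, minus strand: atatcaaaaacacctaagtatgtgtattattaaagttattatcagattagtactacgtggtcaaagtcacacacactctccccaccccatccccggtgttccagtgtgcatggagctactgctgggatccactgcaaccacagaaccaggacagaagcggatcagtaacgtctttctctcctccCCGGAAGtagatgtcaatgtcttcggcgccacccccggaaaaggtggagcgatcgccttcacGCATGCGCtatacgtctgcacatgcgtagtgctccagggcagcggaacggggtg
Atp5g1 promoter, chr11:96075582-96075881, minus strand: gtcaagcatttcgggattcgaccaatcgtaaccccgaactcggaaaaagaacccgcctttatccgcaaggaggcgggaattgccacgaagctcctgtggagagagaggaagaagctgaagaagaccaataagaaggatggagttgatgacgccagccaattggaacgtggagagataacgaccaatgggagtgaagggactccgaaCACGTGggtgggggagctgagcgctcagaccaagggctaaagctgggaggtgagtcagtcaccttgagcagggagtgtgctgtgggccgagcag
Cox7a2l promoter, chr17:83514284-83514583, minus strand: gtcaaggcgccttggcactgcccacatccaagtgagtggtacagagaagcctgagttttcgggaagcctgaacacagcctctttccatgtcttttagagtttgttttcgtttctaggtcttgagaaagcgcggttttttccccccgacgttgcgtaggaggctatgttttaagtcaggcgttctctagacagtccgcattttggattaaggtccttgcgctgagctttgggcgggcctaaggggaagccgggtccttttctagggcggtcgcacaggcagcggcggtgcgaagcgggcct

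The Ndufaf4 window held 3 NRF1 core matches, 2 of which overlap as the palindrome in its first capital run. Cycs held 1 NRF1 core match, Uqcr11 1 ETS and 1 NRF1 core match, and Atp5g1 1 E-box. Cox7a2l held none of the 4 motifs in this window, which starts from the RefSeq start and does not cover the GENCODE start of the gene further upstream. Over all 95 member windows, 13.7% held the NRF1 core, 27.4% the ETS motif, 13.7% the YY1 motif and 8.42% the E-box. Over all 32851 promoter windows the shares were 2.71%, 8.86%, 2.75% and 7.15%.

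Shares were also taken by direction of change. In 55 windows of members called higher, 14.5% held the NRF1 core, 23.6% the ETS motif, 16.4% the YY1 motif and 10.9% the E-box. In 24 windows of members tested and not called they were 12.5%, 37.5%, 16.7% and 4.17%. Only 10 windows belonged to members called lower, with 2 holding the NRF1 core, 4 the ETS motif and none the YY1 motif or the E-box. The Sdhb window held both the NRF1 core and the ETS motif. Among the 12 windows of members at least 2-fold higher, 4 held the NRF1 core, 6 the ETS motif, 1 the YY1 motif and 1 the E-box. These are matches of letters and do not show that a factor was bound.

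Regulators of mitochondrial gene expression were examined beside the members. Nrf1, Gabpa and Yy1 were not called: Nrf1 at 79.3 to 86.3 CPM in DN and 88.1 to 89.5 in DP (0.08), Gabpa at 142 to 163 and 143 to 158 CPM (-0.05), and Yy1 at 132 to 136 and 135 to 140 CPM (0.03). With library totals alone Nrf1 (-0.11), Gabpa (-0.25) and Yy1 (-0.16) were called lower. The partners of Gabpa in the GABP factor were called in opposite directions, Gabpb1 higher (0.24, and 0.05 with no call under library totals alone) and Gabpb2 lower (-0.33). Tfam, which packages mitochondrial DNA, was at 112 to 117 and 112 to 118 CPM (0.01, and -0.19 with a call under library totals alone), and Esrra was not called (-0.21, and -0.41 with a call under library totals alone). Of the 3 PGC-1 family coactivators, Ppargc1a had at most 4 counts in any library and was not tested. Pprc1 rose from 20.2, 17.3 and 20.7 CPM to 90.7, 92.7 and 91.4 CPM (2.23 ± 0.06, SE) and Ppargc1b from 4.87, 4.41 and 4.31 CPM to 18.6, 18.3 and 18.2 CPM (2.01 ± 0.12, SE). The mitochondrial DNA helicase gene Twnk rose by 2.43 and Myc by 3.55, from 4.95, 5.56 and 5.44 CPM to 62.5, 61.3 and 62.3 CPM. Of 20 regulators tested, 10 were higher and 2 lower, with a median of 0.21, against 4328 and 4243 of all 11296 genes tested. With library totals alone, 8 of the regulators were higher and 7 lower, against 3288 and 5359 of all genes.

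Genes that supply or finish the same machinery but lay outside the symbol rule were given by count. Of 33 further assembly factors tested, 22 were higher and 4 lower, with a median of 0.62. Lrpprc, which stabilises mitochondrial messages, rose from 68.9, 67.8 and 68.8 CPM to 177, 173 and 174 CPM (1.35), and Dmac2 fell from 41.7, 40.9 and 39.4 CPM to 16.0, 16.9 and 18.6 CPM (-1.25). Of 13 ubiquinone synthesis genes, 9 were higher and 2 lower, with a median of 0.49, among them Coq7 (1.42) and Coq5 (0.95). Of 6 other genes feeding electrons to ubiquinone, 3 were higher, including Dhodh of pyrimidine synthesis (1.87), and 2 were lower, including Gpd2 (-0.36). These 3 lists kept more higher than lower calls with library totals alone, at 18 and 7, 7 and 4, and 3 and 2. Of all 11296 genes, 3288 were higher and 5359 lower at that setting.

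Of 11 tested subunit genes of mitochondrial DNA, 4 were higher (36.4%) and 3 lower (27.3%), against 38.3% and 37.6% of all genes tested. The higher call of mt-Atp6 rested on 4 to 32 counts per library, with overlapping groups. Under library totals alone, 2 of the 11 were higher and 4 lower, against 3288 and 5359 of all 11296 genes. The summed level of the 13 mitochondrial genes was 11100, 11500 and 11500 CPM in DN and 10200, 9560 and 9970 CPM in DP. The ratio was 0.872, while the nuclear subunits had a ratio of 1.27. Most of the mitochondrial sum came from mt-Co1, mt-Nd5, mt-Nd1 and mt-Cytb, so the ratio does not describe the whole set. mt-Co1 fell from 4060, 4650 and 4440 CPM to 3050, 2910 and 3160 CPM (-0.53 ± 0.04, SE; adjusted p = 1.68e-16) and mt-Nd5 by 0.45. mt-Nd6 rose from 28.4, 57.0 and 21.5 CPM to 116, 136 and 122 CPM (1.83 ± 0.33, SE; adjusted p = 0.00658), and mt-Nd2 rose by 0.52. Counts were at most 89 in any library for mt-Co2, mt-Co3, mt-Atp6, mt-Atp8, mt-Nd3 and mt-Nd4l, which add almost nothing to the sum. Overlap and shared sequence were not examined for the mitochondrial genes. Whether reads of these genes were lost in mapping or counting was not tested, so the sums may be incomplete. The difference between the nuclear and mitochondrial sets was not tested.

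Changes were also set against transcript length and abundance. Across the 100 tested genes, which share the same 6 libraries and are not independent replicates, Spearman's rho of the log2 fold change with exon length was 0.09 and with level per kilobase was -0.11. Of the 26 members that were not called, 22 lay within 0.2 of 0 on the log2 scale, and the largest of their changes was 0.55 in size (Cox17).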

How the data were processed

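The deposited values are raw read counts per gene, 1 table for each of 6 libraries, and the authors did not normalize them. The genome build was mm10 and the software HTSeq 0.13.5, STAR 2.7.10a and Trim Galore 0.6.6, per the submitters' processing notes. Per the labels' protocols the library kit was stranded. Strand setting, annotation release and use of identifiers for molecules were not given in the sources used here, so antisense overlap and duplicate reads could affect counts. Summary rows that name no gene (12.4% to 12.9% of counts in DN, 9.47% to 9.61% in DP) were left out.

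Libraries were grouped by title. DP was compared with DN by edgeR 4.0.16 (R 4.3.3) with robust quasi-likelihood fits, TMM factors, filterByExpr with a minimum count of 10 and Benjamini-Hochberg adjustment over the 11296 genes left, called at an adjusted p under 0.05. CPM used TMM-scaled totals, and summed levels include untested genes. Replicates differed by more than sampling noise (chi-square per degree of freedom 1.96 to 3.26 within groups, 144 to 182 between), so all were kept. Deviations of same-numbered libraries correlated at 0.06, -0.01 and -0.02, so numbers were not treated as pairs. Exon overlap and 50-base sequence sharing came from GENCODE M21, to which 55141 identifiers matched without version. Among tested members, 14 had at least 10% of exon bases shared with another gene on either strand. At least 10% of 50-base stretches occurred in another gene for 13, and not all of these are marked above. On simulated data for this comparison (11296 genes), 76.0% of 1.5-fold and 94.0% of 2-fold changes were recovered and 3.68% of calls were false.

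The members, roles and lists were chosen with earlier results of these data known. Named genes were the top 3 rises and top 2 falls of each complex, taken from called members whose groups did not overlap and whose higher group averaged 5 CPM or more. All members called lower, uncalled or below the filter, all assembly factors, alternative forms of a subunit, Cycs, up to 5 genes per list and 7 regulators were added. A result the naming rule took is not reported here. The other members named were chosen after their values were seen, to complete each complex. Alternatives were other scalings, filters, thresholds and tools (DESeq2 1.42.0, limma-voom of limma 3.58.1), thinned DP libraries, a length trend, the replicate block and each library left out.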

Additional observations from a re-analysis of the deposited data

Results flagged for a closer look

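Among the 14 rows with pseudogene names that were dropped from the members, 4 had reads above the floor of 3 counts in every library. Ndufb1-ps had 3721 reads over the 6 libraries; it is annotated as a noncoding RNA from a bidirectional promoter and was lower in DP, with a mean of 49.5 CPM in DN against 40.8 CPM in DP (log2 fold change -0.27 ± 0.06, SE; edgeR adjusted p = 1.91e-04). Atp5pb-ps had 232 reads and Ndufa12-ps 123 reads, and neither was called (0.18 ± 0.22 and 0.67 ± 0.32, SE; edgeR adjusted p = 0.468 and 0.0554). Cox5b-ps, which is annotated as protein coding, had 49 reads and did not pass the filter.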

How the results depend on the processing

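In every alternative other than the stricter thresholds, 54 members kept a higher call and 6 a lower call. The median of the members minus that of all genes stayed between 0.33 and 0.38. Other scalings shift all genes nearly alike, and an adjusted p of 0.01 leaves the changes as fitted. Those settings could not move this difference. With the replicate block, all 100 calls were as before (63 higher, 11 lower), so the block changed no call.

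Library totals alone gave 26 members lower, 20 subunits and 6 assembly factors lower, medians of 0.15 for subunits and 0.38 for assembly factors, and 38.0% of all calls higher in place of 50.5%. Atp5j (-0.16), Cox4i1 (-0.11), Atp5j2 (-0.13) and Ndufb10 (-0.17) then changed sign and were called lower. Upper-quartile factors put the subunit median at 0.31. Without a filter, 4 subunits were lower (Ndufa1, Ndufa2, Ndufv3 and Atp5h lost their call) and the medians were 0.42 and 0.65. DESeq2 and an adjusted p of 0.01 each left 5 subunits lower. Against a minimum change of 1.5-fold, 23 members were higher and 1 lower, comprising 14 and 0 subunits and 8 and 1 assembly factors, besides Cycs; at that setting 1964 and 1912 of all genes were called. Removing the length trend, with or without the replicate block, put the subunit median at 0.30. Ndufa2 moved to 0.05 with both, and Ndufa1 to 0.02, or 0.03 with the block.

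Leaving out each library gave 5 to 9 subunits lower (5 without DP2), 2 to 4 assembly factors lower, subunit medians of 0.31 to 0.36 and assembly factor medians of 0.52 to 0.58. Cox8a, Cox4i1, Atp5md and Ndufa7 (without DP2) among the rises, and Ndufa1, Ndufa2, Ndufv3 and Sdhaf4 (without DP3) among the falls, lost their call without at least 1 library, while Ndufaf3, Ndufs8 and Ndufb7 (without DN1), Ndufb2 (without DN2) and Uqcrh (without DP1) gained a lower call, and Atp5j, Ndufs5 and Ndufa4 (without DN1), Ndufa6 (without DN3) and Ndufc2 (without DP1) a higher call. Leaving out members with at least 10% overlap or shared sequence, chosen after seeing the data, left 73 tested members. Of these, 47 were higher (64.4%) and 6 lower (8.22%), against 63.0% and 11.0% of the 100 tested members. The 6 lower ones were 5 subunits and 1 assembly factor. For the moved counts and medians the cause was not tested. Thinning the DP libraries to the mean DN depth changed the call of 2 members, Surf1 and Cox4i1.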
